A study of Mus musculus with 15 samples.

Results

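The replication-dependent histone genes encode the linker histone H1 and the core histones H2A, H2B, H3 and H4 that are made in bulk when a cell copies its DNA. They were taken here as every gene symbol in the deposited tables that begins with Hist1h, Hist2h, Hist3h or Hist4h, the names of the histone gene clusters of the mouse. This gave 68 of 24027 symbols. Hist1h2bq and Hist1h2br carry identical values in every table and were counted once, which leaves 67 measurements. For Hist1h2aa, Hist1h2ba and Hist2h2aa2 the tables hold no value.

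The genes were measured in skin of SKH1 mice, all female. SKH1 is a hairless strain in which tumours of the skin can be raised by ultraviolet light. Per the labels, mice of 6 to 8 weeks received ultraviolet B at 500 J/m2 on 5 days a week over 10 weeks, which induces actinic keratoses, precancerous lesions of keratinocytes. Control mice were given 0.25 g of a placebo cream on 5 days a week and treated mice the same amount of GZ21T cream, with the protocols written alike for every sample. The 15 libraries form 5 groups of 3: from placebo mice there is skin not exposed to UV, non-lesional skin, perilesional skin and lesional skin, and from GZ21T mice there is lesional skin. No genotype other than SKH1 is given. In the table headers the unexposed group is named back, so body site and ultraviolet exposure cannot be told apart wherever that group is the reference. The placebo libraries are numbered Control 1 to 3 at each site and may come from the same mice, which the labels do not state, so p-values measure the spread between libraries only.

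Most messenger RNAs end in a poly(A) tail, but those of replication-dependent histones end just after a short stem-loop. Dedicated machinery cuts the precursor downstream of the stem-loop, which stays in the message and is bound by the stem-loop binding protein Slbp. The genes are switched on at the entry into S phase through the coactivator Npat, and their messages are degraded when DNA synthesis stops, so their level is commonly read as a sign of cells in S phase. Per the labels the libraries were made from total RNA with a total RNA kit, a preparation that does not rely on poly(A) tails.

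The stem-loop was searched for after the stop codon in the annotated transcripts (GENCODE mouse release 21, GRCm38), as GG, CTTT, AG and CC in this order with 2 free bases between neighbours, on the sense strand alone. It was found in 44 of the 68 genes. Another 20 have a transcript annotated to end within 100 bases of the stop with no stem-loop before that end, 1 has no coding transcript (Hist3h2bb-ps) and 3 had no match (Hist1h2bc, Hist1h4a and Hist2h2be). Among genes with a full window of 100 bases after the stop, 25 of 31 histone genes (80.6%) and 7 of 19876 other protein-coding genes (0.0352%) held it. H2afx, the histone variant that marks DNA breaks once phosphorylated, was one of those 7.

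The stem-loops differ between H4 and the other types in the bases that form the stem. They are shown for histone genes described below, as 26-base sites with the stem-loop in capitals.
Hist1h2ab, H2A, chr13:23751567-23751592, plus strand: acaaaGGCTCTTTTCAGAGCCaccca
Hist1h2bb, H2B, chr13:23747198-23747223, plus strand: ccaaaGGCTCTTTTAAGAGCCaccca
Hist1h2bj, H2B, chr13:22043633-22043658, plus strand: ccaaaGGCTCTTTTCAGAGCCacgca
Hist2h2ac, H2A, chr3:96220413-96220438, minus strand: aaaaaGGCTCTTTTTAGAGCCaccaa
Hist2h3c2, H3, chr3:96238480-96238505, minus strand: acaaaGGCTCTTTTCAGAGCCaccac
Hist1h4b, H4, chr13:23757361-23757386, plus strand: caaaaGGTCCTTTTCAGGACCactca
Hist1h4c, H4, chr13:23698084-23698109, minus strand: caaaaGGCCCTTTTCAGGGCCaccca
Hist1h4d, H4, chr13:23581945-23581970, plus strand: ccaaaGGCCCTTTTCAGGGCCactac
Hist1h4i, H4, chr13:22040961-22040986, minus strand: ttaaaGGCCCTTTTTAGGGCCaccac
Hist2h4, H4, chr3:96262934-96262959, minus strand: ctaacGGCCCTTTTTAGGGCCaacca
Of the genes of types H1, H2A, H2B and H3 with a stem-loop, 26 have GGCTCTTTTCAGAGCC, 6 have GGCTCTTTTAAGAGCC and 1, Hist2h2ac, has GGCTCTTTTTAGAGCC. Of the H4 genes 7 have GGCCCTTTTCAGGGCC, 2 have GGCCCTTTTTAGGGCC and 2 have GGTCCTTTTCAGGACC. None of these forms was seen in both sets.

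The genes lie in 4 clusters of GRCm38. The Hist1 cluster holds 54 of them on chromosome 13, from 21715763 to 23934851. Hist2 holds 10 on chromosome 3, from 96219865 to 96270132, Hist3 holds 3 on chromosome 11, from 58948920 to 58956830, and Hist4h4 stands alone on chromosome 6, from 136801553 to 136804415.

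Levels per library or per group are not part of the tables analysed here, so the depth of the libraries is unknown and every value below is a log2 fold change between groups of 3 libraries, with the standard error (SE) that follows from the deposited Wald statistic. A gene was called when its adjusted p was under 0.05, with Benjamini-Hochberg adjustment over all genes tested, and a gene without an adjusted p was not tested. Overlap between groups at the level of single libraries cannot be shown.

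Placebo lesions were set against non-UV-exposed skin, the comparison with the widest span between the placebo sites. Histone genes of every type rose in the lesions and none fell. Of the 67 measurements 63 were tested in the authors' deposited table and 50 of them (79.4%) were called higher, against 18.3% of all 15201 genes called in either direction and 10.2% called higher. The median over the histone genes was 1.35 on the log2 scale, a 2.55-fold higher level, against 0.08 over all genes. The call rested on the normal null of the Wald test: with a null whose width was estimated from the genes, 0 of the 63 passed. That width was 1.92 times the normal one and came from all genes tested, changed ones included. The share of all genes that passed under it was not counted. In bulk skin, more cells in S phase and more histone message in each such cell cannot be told apart.

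Histone H1 binds the linker DNA between nucleosomes, and 3 of its 5 tested genes rose. In the authors' deposited table Hist1h1a stood at 1.62 ± 0.36 (SE; adjusted p = 0.00025), Hist1h1b at 1.49 ± 0.33 (adjusted p = 0.00022) and Hist1h1d at 1.35 ± 0.32 (adjusted p = 0.00088). The other 2 fell short of the threshold in the authors' deposited table, Hist1h1c at 0.76 ± 0.31 (adjusted p = 0.069) and Hist1h1e at 0.68 ± 0.27 (adjusted p = 0.062). Hist1h1a and Hist1h1b share no exact stretch of 50 bases with the annotated transcripts of any other gene. Near matches and the rest of the genome were not searched, and how the authors assigned reads is not known here.

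H2A and H2B pair as a dimer on the outer faces of the nucleosome. Of the H2B genes 14 of 17 rose, with a median of 1.50, and of the H2A genes 12 of 16 rose, with a median of 1.26. The highest value of all was that of Hist1h2bj, an H2B gene at chromosome 13, 22043214 to 22043676, plus strand, with 2.00 ± 0.38 (adjusted p = 2e-05), per the authors' deposited table, a 4.0-fold higher level. Other H2B genes among the smallest adjusted p-values in the authors' deposited table were Hist1h2bb at 1.64 ± 0.35 (adjusted p = 0.00013), Hist1h2bk at 1.72 ± 0.38 (adjusted p = 0.00024), Hist1h2bh at 1.68 ± 0.37 (adjusted p = 0.00024) and Hist1h2bl at 1.50 ± 0.33 (adjusted p = 0.00023). The H2B genes of the Hist1 cluster rose without exception, 13 of 13. The highest H2A value was that of Hist1h2an, at 1.97 ± 0.45 (adjusted p = 0.0005), per the authors' deposited table, and the lowest that of Hist2h2ab, at 0.16 ± 0.52 (adjusted p = 0.87).

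H3 and H4 form the tetramer at the centre of the nucleosome. Of the H3 genes 11 of 12 rose, with a median of 1.39, including 9 of 9 in the Hist1 cluster. Hist1h3a had the highest H3 value, 1.92 ± 0.62 (adjusted p = 0.017), and Hist1h3h stood at 1.70 ± 0.39 (adjusted p = 0.00049), per the authors' deposited table. Hist2h3c1, the H3 gene that was not called, has a fold change of exactly 0 there, which is how the table marks a gene without reads in both groups. Of the H4 genes 10 of 13 rose, with a median of 1.30. They were led in size by Hist1h4b at 1.80 ± 0.41 (adjusted p = 0.00039) and Hist1h4i at 1.75 ± 0.39 (adjusted p = 0.00035), and in adjusted p by Hist1h4n at 1.41 ± 0.31 (adjusted p = 0.00028) and Hist1h4d at 1.30 ± 0.29 (adjusted p = 0.00033), per the authors' deposited table.

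**Figure D1:**
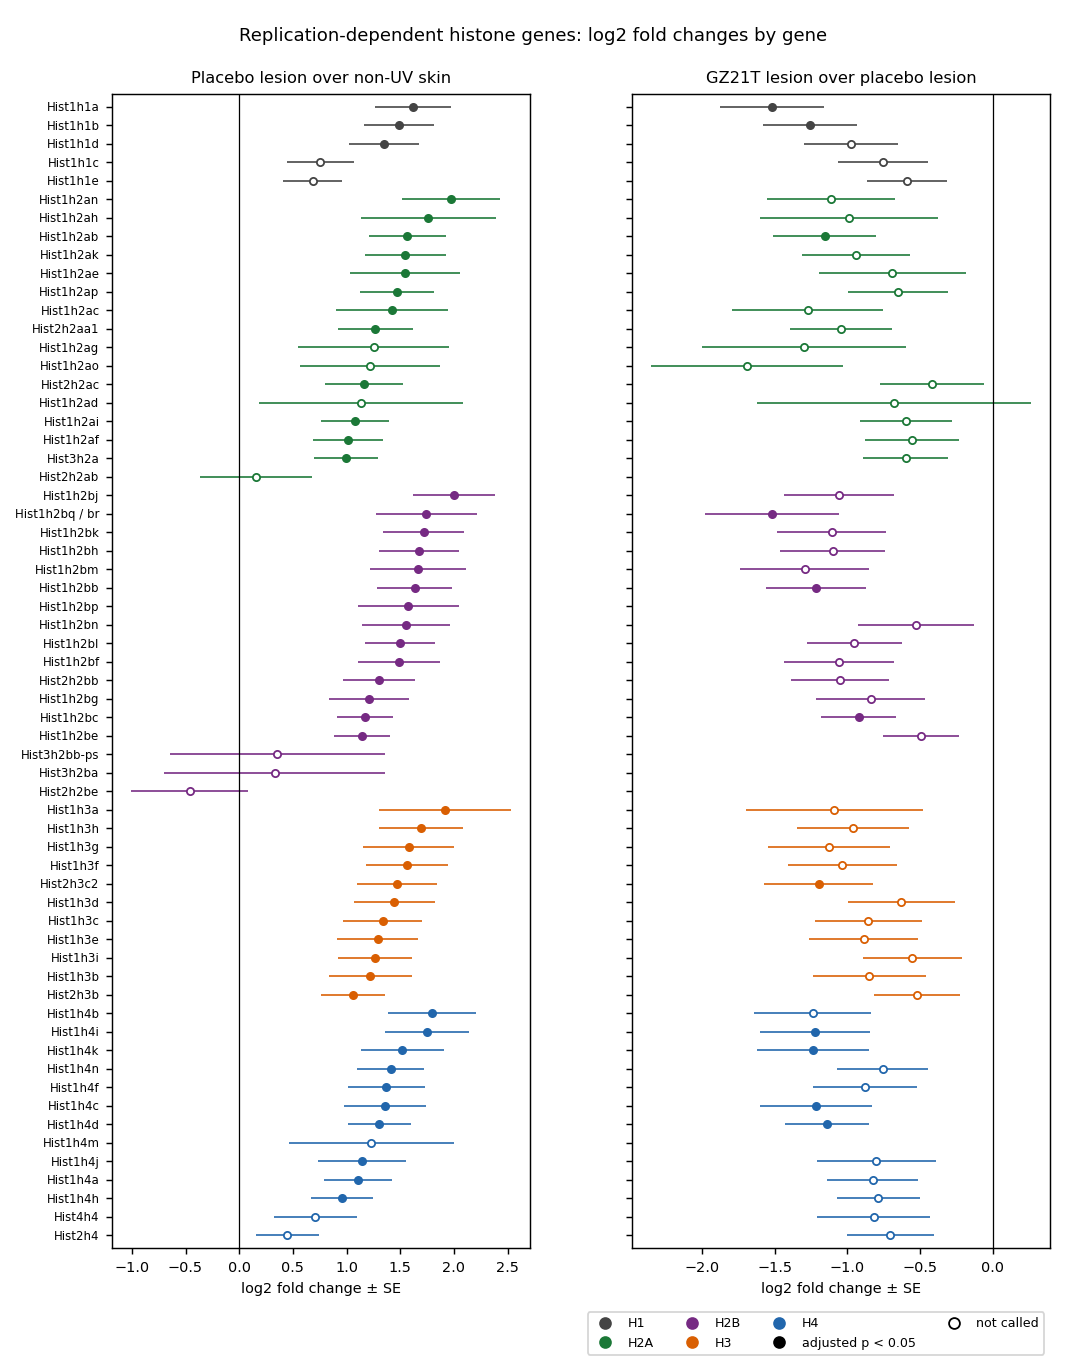
Log2 fold changes (x axis, with SE) of the histone genes tested in placebo lesions over non-UV skin (left) and, where tested, in GZ21T over placebo lesions (right), 1 row a gene, coloured by histone type, filled where the adjusted p is under 0.05; Hist2h3c1, at exactly 0 on the left, is not drawn. On the left the filled points run up to 2.00 for Hist1h2bj and Hist2h2be is the gene below 0; on the right the 56 tested points lie below 0 and 11 are filled.

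The genes that were not called were 13. Wide errors accompanied several: Hist1h2ad stood at 1.14 ± 0.95, Hist1h4m at 1.23 ± 0.77, Hist1h2ag at 1.25 ± 0.70 and Hist1h2ao at 1.22 ± 0.65 in the authors' deposited table, with adjusted p-values from 0.18 to 0.43 and fold changes close to those of called genes. Hist3h2ba and Hist3h2bb-ps had errors of 1.03 and 1.00 around values of 0.33 and 0.35. Other uncalled genes had narrower errors and smaller values. Hist2h4 stood at 0.45 ± 0.30 (adjusted p = 0.30) and Hist4h4 at 0.71 ± 0.39 (adjusted p = 0.19), per the authors' deposited table. Hist2h2be, an H2B gene known from mouse olfactory neurons, cells that have stopped dividing, stood at -0.46 ± 0.54 (adjusted p = 0.60), the one negative value among the tested genes.

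By cluster, 44 of 50 Hist1 genes rose (median 1.46), 5 of 9 Hist2 genes (median 1.06), 1 of 3 Hist3 genes (median 0.35) and Hist4h4 did not pass. The 9 Hist2 genes include Hist2h3c1, the gene without reads in both groups. The Hist1 cluster falls into 3 blocks along chromosome 13. The 17 genes from 21715763 to 21837530 had a median of 1.5 and 15 of them rose, the 5 genes from 22035164 to 22043676 a median of 1.75 with 4 that rose, and the 28 tested genes from 23531050 to 23934851 a median of 1.35 with 25 that rose. Called genes were thus found in each block. How reads were shared out among near-identical genes is not known here, so the blocks may not be independent. These counts are descriptions and the differences between clusters were not tested.

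The steps between the placebo sites were smaller. No histone gene was called in non-lesional over non-UV skin by the authors' DESeq2 test, where 62 were tested and 1.66% of all genes were called, and 6 of the 62 (9.68%) had an unadjusted p under 0.05, against 10% of all genes. The values nonetheless leaned one way: 60 of 62 (96.8%) were above 0, against 47.9% of all genes, and the median was 0.50 against -0.02. The highest of the 62 was Hist2h3c1 at 5.44, the gene marked as without reads in non-UV and placebo lesional skin, so its size is not informative. The authors' deposited table gave the smallest p to Hist2h3b, an H3 gene, at 0.75 ± 0.30 (adjusted p = 0.26), followed by the H2B genes Hist1h2bb at 0.86 ± 0.35 (adjusted p = 0.28) and Hist1h2bj at 0.91 ± 0.39 (adjusted p = 0.32). The lowest value was that of the H4 gene Hist1h4m, -0.46 ± 0.79 (adjusted p = 0.94). The genes share libraries and, in part, reads, so they are not independent and the share above 0 is a description.

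Perilesional over non-lesional skin gave the same picture in size. By the authors' DESeq2 test 0 of 63 histone genes were called, against 0.112% of all genes, and 4 (6.35%) had an unadjusted p under 0.05, against 7.83%. Values above 0 were seen for 61 of 63 (96.8%), against 53.1% of all genes, with a median of 0.47 against 0.03. In the authors' deposited table Hist1h4c stood at 0.96 ± 0.38 (adjusted p = 0.46), Hist1h2ab at 0.87 ± 0.35 (adjusted p = 0.47) and Hist1h3a, the highest, at 1.17 ± 0.61 (adjusted p = 0.66). The 2 genes below 0 were Hist2h2be at -0.23 ± 0.49 (adjusted p = 0.96) and Hist1h4i at -0.22 ± 0.38 (adjusted p = 0.95). The non-lesional libraries enter this comparison and the one before with opposite sign.

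Lesional over perilesional skin was derived from 3 deposited tables. Here too no histone gene of 63 was called, by the normal test on the derived value, against 0.476% of all genes, and 2 (3.17%) had an unadjusted p under 0.05, against 9.48%. Among them 59 (93.7%) were above 0, against 54.9% of all genes, and the median was 0.45 against 0.05. Hist1h4i had the highest derived value, 1.29 ± 0.36 (adjusted p = 0.065), and it is also one of the genes below 0 in perilesional over non-lesional skin, a comparison that shares the perilesional libraries. Hist1h1a followed in p at 0.69 ± 0.35 (adjusted p = 0.53), and Hist2h2be was lowest at -0.84 ± 0.51 (adjusted p = 0.65). With adjustment over genes that have an adjusted p in all tables, or at a threshold of 0.1, Hist1h4i was the 1 histone gene called. The share of all genes called under these 2 settings was not counted, so that call has no background beside it.

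Put on a common scale, the 56 histone genes tested in every table had medians over non-UV skin of 0.50 in non-lesional, 0.93 in perilesional and 1.39 in lesional placebo skin. Individual genes ran from 0.32 to 1.80 in perilesional skin and from 0.45 (Hist2h4) to 2.00 (Hist1h2bj) in lesions. The perilesional values are sums of 2 deposited values, with no error of their own. Hist1h1a, for example, went from 0.37 in non-lesional to 0.93 in perilesional and 1.62 in lesional skin, while Hist1h3a stood at 0.63, 1.80 and 1.92 and Hist1h4i at 0.67, 0.46 and 1.75. The median was higher by a like amount at each step. Perilesional over non-UV and lesional over non-lesional skin were not tested here.

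**Figure D2:**
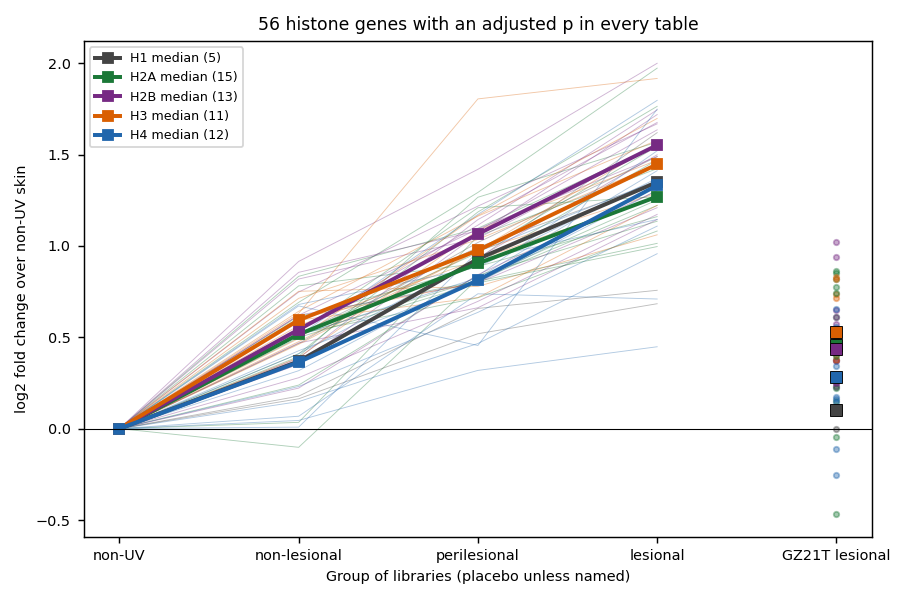
Log2 fold change over non-UV skin (y axis) in each group of 3 libraries (x axis) for the 56 histone genes tested in every table; thin lines and small points are genes, squares are medians of the histone types, and the points at the right, not joined, are GZ21T lesions. The median of every type is higher at each site from non-UV to lesional skin of placebo mice, and GZ21T lesions have a median of 0.43 over all 56 genes.

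GZ21T lesions were then compared with placebo lesions, the comparison that bears on the treatment. Histone genes were lower under GZ21T: the authors' deposited table has 56 of them tested and 11 (19.6%) called lower, with none higher, against 3.61% of all genes called and 2.29% called lower. The median was -0.96, a 1.94-fold lower level, against -0.06 over all 10899 genes. Each of the 56 lay below 0, against 55.2% of all genes, and 41 (73.2%) had an unadjusted p under 0.05, against 22.9%. A further 8 measurements have a fold change and were not tested, and of these Hist2h2be at 0.68 ± 0.54, Hist3h2bb-ps at 0.43 ± 0.92 and Hist2h3c1, whose error of 5.89 leaves its 6.61 without information, were above 0. The count was 6 when fold changes were centred on the median of all genes, 5 when every gene with a p entered the adjustment, 25 at an adjusted p under 0.1, and 0 with a null whose width was estimated from the genes. That null was 1.64 times as wide as the normal one. The share of all genes called under these settings was not counted, so these counts have no background beside them.

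Of the linker histone genes, Hist1h1a and Hist1h1b were called lower. In the authors' deposited table Hist1h1a, at chromosome 13, 23763666 to 23764406, plus strand, stood at -1.52 ± 0.36 (adjusted p = 0.0074), a 2.86-fold lower level with a 95% interval from -2.22 to -0.82, and Hist1h1b, at 21779883 to 21780625, minus strand, at -1.26 ± 0.32 (adjusted p = 0.016). Hist1h1d at -0.98 ± 0.32 (adjusted p = 0.058), Hist1h1c at -0.76 ± 0.31 (adjusted p = 0.12) and Hist1h1e at -0.59 ± 0.27 (adjusted p = 0.17) did not pass in the authors' deposited table. Placebo lesions are the reference here and the first group in the comparison with non-UV skin, so opposite signs in these comparisons are in part built in.

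Among the core histones 9 genes were called lower. The 4 H4 genes were Hist1h4d at -1.14 ± 0.29 (adjusted p = 0.016), Hist1h4i at -1.22 ± 0.38 (adjusted p = 0.042), Hist1h4k at -1.24 ± 0.39 (adjusted p = 0.045) and Hist1h4c at -1.21 ± 0.39 (adjusted p = 0.048), per the authors' deposited table. The 3 H2B measurements were Hist1h2bc at -0.92 ± 0.26 (adjusted p = 0.026), Hist1h2bb at -1.22 ± 0.34 (adjusted p = 0.028) and the pair Hist1h2bq and Hist1h2br, which cannot be told apart, at -1.52 ± 0.46 (adjusted p = 0.041), per the authors' deposited table. One H2A gene, Hist1h2ab at -1.16 ± 0.35 (adjusted p = 0.041), and one H3 gene, Hist2h3c2 at -1.20 ± 0.37 (adjusted p = 0.044), completed them in the authors' deposited table. By type 2 of 5 H1, 1 of 15 H2A, 3 of 13 H2B, 1 of 11 H3 and 4 of 12 H4 genes were called, with medians of -0.98, -0.94, -1.05, -0.89 and -0.85. The medians were thus closer to each other than the counts, and the values spanned -1.69 ± 0.66 for Hist1h2ao (adjusted p = 0.10) to -0.42 ± 0.36 for Hist2h2ac (adjusted p = 0.51), both H2A genes, in the authors' deposited table.

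GZ21T lesions were set against placebo non-lesional skin by a derived contrast in which the placebo lesions cancel. No histone gene of 63 was called by the normal test on the derived value, 0 had an unadjusted p under 0.05, and 0% of all genes were called, with 508 (3.03%) at an unadjusted p under 0.05. A null whose width was estimated from the genes was 0.803 times as wide as the normal one, and no histone gene passed under it. Whether the errors of this contrast are too wide was not tested. The median was -0.03, against 0.03 over all genes, and 29 of the 63 (46%) were above 0, against 53.3%. Hist1h1a stood at -0.27 ± 0.36 (95% interval -0.97 to 0.44), Hist1h2bb at -0.44 ± 0.35 and Hist1h2bc at -0.03 ± 0.26, each with an adjusted p of 1. The lowest value was -0.98 ± 0.66 for Hist1h2ao. Over non-UV skin the 56 genes tested in every table had a median of 0.43 in GZ21T lesions, beside 0.50 in placebo non-lesional and 1.39 in placebo lesional skin, and 51 of them were above 0, from -0.47 (Hist1h2ao) to 1.02 (Hist1h2bn). The interval for Hist1h1a includes differences as large as the steps between placebo sites, so equal levels in these kinds of skin are not shown.

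Near-identical coding sequences make it uncertain how reads were shared out among histone genes, and how the authors counted such reads is not known here. The share of stretches of 50 bases of a transcript that also occur in another gene was therefore taken for each gene. In lesions over non-UV skin, 3 of 7 genes with under 10% shared were called (median 0.76), 21 of 25 with 10 to 50% (median 1.30) and 26 of 31 with over 50% (median 1.47). Genes with under 10% shared include called genes, such as Hist1h1a at 1.62, and genes that were not called, such as Hist2h4 at 0.45 and Hist2h2be at -0.46. Under GZ21T 2 of 6, 5 of 22 and 4 of 28 genes were called in these bins, with medians of -0.90, -0.87 and -1.02. Hist1h2be lies over Hist1h1e on the same strand, so their values are not independent.

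**Figure D3:**
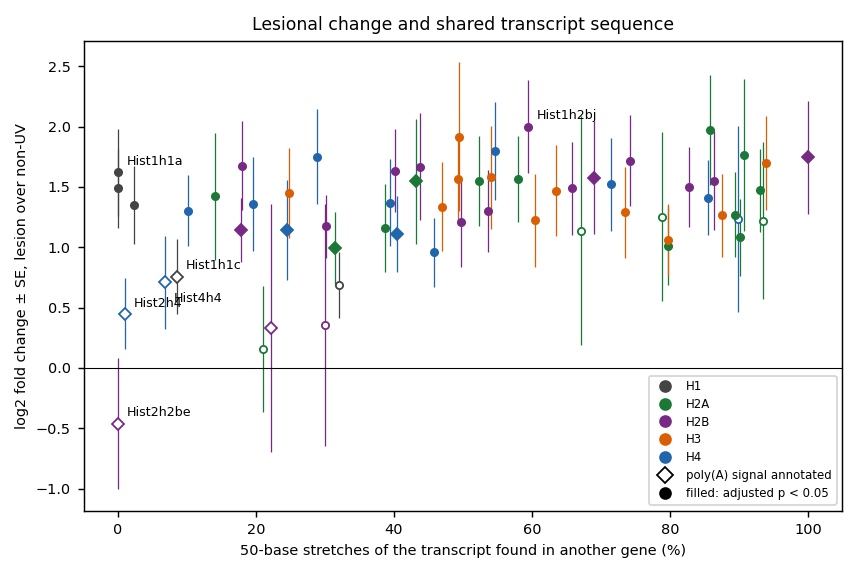
Log2 fold change of placebo lesions over non-UV skin with SE (y axis) against the percentage of 50-base stretches of the transcript found in another gene (x axis) for the tested histone genes, Hist2h3c1 left out; diamonds have AATAAA in the last 50 annotated bases and filled symbols have an adjusted p under 0.05. Called genes are seen across the whole axis, and Hist2h2be (-0.46) and Hist2h4 (0.45) lie at the left with diamonds.

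The genes were also grouped by the annotated end of the transcript. AATAAA, the signal for polyadenylation, stands in the last 50 annotated bases of 13 tested genes, of which 7 rose in lesions (median 1.00), and is missing there in 50, of which 43 rose (median 1.42). The 13 include Hist2h3c1, the gene without reads in both groups. For 17 tested genes the annotation ends within 100 bases of the stop with no stem-loop, and 16 of them rose (median 1.52). A signal beyond that end would not be seen, so these groups depend on how complete the annotation is. Under GZ21T 1 of 9 with it and 10 of 47 without it were called, with medians of -0.76 and -1.03. Histone genes known for polyadenylated transcripts or for expression outside S phase differed among themselves. Of these Hist1h2bc rose in lesions, at 1.17 ± 0.26 (adjusted p = 0.00025), per the authors' deposited table, whereas Hist1h1c and Hist2h2be, given above, did not pass. Of 3 histone genes known from the male germ line, Hist1h2aa and Hist1h2ba had no value and Hist1h1t, at 1.55 ± 1.61, was not tested.

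H2A and H2B genes often stand head to head and share the stretch between their start sites. There are 13 such pairs with starts at most 500 bases apart, all of 1 H2A and 1 H2B gene, and 12 of them have values for both. Hist1h2ah at 1.76 ± 0.63 (adjusted p = 0.032) and Hist1h2bk at 1.72 ± 0.38 stood close together in lesions over non-UV skin in the authors' deposited table, as did Hist1h2ak and Hist1h2bn, both at 1.55. By contrast, Hist2h2ac at 1.16 ± 0.37 (adjusted p = 0.014) and Hist2h2be at -0.46 ± 0.54, with 238 bases between their starts, differed by 1.62 on the log2 scale. The other pairs differed by at most 0.75. Hist2h2ac has a stem-loop, printed above, and no match was found in the annotated transcript of Hist2h2be, which runs 2192 bases past the stop.

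The promoters shared by Hist1h2ah and Hist1h2bk and by Hist2h2ac and Hist2h2be are printed below from RefSeq (GRCm38.p6), with that of Hist1h1a. Hist1h1a is the histone gene with the smallest adjusted p under GZ21T. Each promoter runs from 250 bases before to 50 after the start, read on the gene's strand. Capitals mark the TATA box TATAAA, the CCAAT box (read ATTGG on the other strand) and the octamer ATTTGCAT (read ATGCAAAT on the other strand), a motif known from H2B promoters. The motif AAACACA, known from H1 promoters, was searched too, and both strands were searched for each. No stretch printed here holds AAACACA, that of Hist1h1a included.
Hist1h1a, chr13:23763418-23763717, plus strand: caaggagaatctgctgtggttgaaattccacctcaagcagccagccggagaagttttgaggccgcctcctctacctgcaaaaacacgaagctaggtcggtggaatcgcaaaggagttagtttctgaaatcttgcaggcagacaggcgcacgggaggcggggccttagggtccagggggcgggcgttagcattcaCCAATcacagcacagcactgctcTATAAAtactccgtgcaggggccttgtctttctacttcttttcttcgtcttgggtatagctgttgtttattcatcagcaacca
Hist1h2ah, shared with Hist1h2bk, chr13:22035594-22035893, minus strand: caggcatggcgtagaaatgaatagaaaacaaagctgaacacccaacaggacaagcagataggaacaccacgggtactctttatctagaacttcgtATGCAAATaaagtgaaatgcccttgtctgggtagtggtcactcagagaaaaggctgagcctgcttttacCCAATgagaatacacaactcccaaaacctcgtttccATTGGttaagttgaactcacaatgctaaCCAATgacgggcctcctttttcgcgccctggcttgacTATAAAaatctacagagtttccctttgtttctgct
Hist2h2ac, shared with Hist2h2be, chr3:96220831-96221130, minus strand: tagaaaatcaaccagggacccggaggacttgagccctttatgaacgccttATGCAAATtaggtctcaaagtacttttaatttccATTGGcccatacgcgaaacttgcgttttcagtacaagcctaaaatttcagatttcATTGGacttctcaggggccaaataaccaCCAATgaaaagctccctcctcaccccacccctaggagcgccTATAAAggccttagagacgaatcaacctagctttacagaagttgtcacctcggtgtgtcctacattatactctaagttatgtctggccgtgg
Both shared stretches hold the octamer, the CCAAT box and the TATA box. Of the 68 genes 62 matched an entry by gene ID, and 35 of these (56.5%) hold TATAAA, against 15.7% of all 27025 genes with a promoter entry. A gene was counted when any of its promoters held the motif. CCAAT was found in 53 (85.5%, against 41.1%), ATTTGCAT in 14 (22.6%, against 1.97%) and AAACACA in 9 (14.5%, against 8.22%). By type, the octamer was found for 7 of 18 H2A and 7 of 16 H2B genes and for none of the other types. Because both strands were searched, a site between the starts of a pair can count for its H2A and its H2B gene. The counts of motifs are therefore not counts of separate sites. AAACACA was found for 5 of 6 H1 genes, and CCAAT for every matched gene outside H4, where 3 of 12 hold it. A match is a description of the letters in this window.

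Genes that make, carry and replace histones were set beside them. The machinery of histone mRNA processing had 1 member higher and 1 lower of 17 tested in lesions over non-UV skin, with a median of 0.02. Of all genes 10.2% were called higher and 8.17% lower in that comparison, so these counts do not stand out. In the authors' deposited table the stem-loop binding protein gene Slbp stood at 0.22 ± 0.31 (adjusted p = 0.67) and Npat at 0.20 ± 0.17 (adjusted p = 0.44), while Cpsf2, a subunit of the cleavage complex, rose to 0.63 ± 0.24 (adjusted p = 0.046) and Zcchc11, a uridyl transferase, fell to -0.85 ± 0.26 (adjusted p = 0.013). Under GZ21T 0 of 15 were called, against 3.61% of all genes. Slbp stood at -0.41 ± 0.31 (adjusted p = 0.44) and Npat at -0.28 ± 0.17 (adjusted p = 0.32), per the authors' deposited table. For Slbp and Npat no difference was detectable in either comparison.

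Of 11 tested genes for histone variants, which are made outside S phase or serve special roles, 3 rose in lesions and none fell, with a median of 0.43. Among all genes 10.2% rose and 8.17% fell. The variants that rose were H2afx at 1.50 ± 0.34 (adjusted p = 0.00042), whose transcript holds the stem-loop, H2afz at 0.92 ± 0.30 (adjusted p = 0.019) and the centromeric Cenpa at 1.09 ± 0.36 (adjusted p = 0.021), per the authors' deposited table. H3f3b, which encodes the replacement histone of H3, stood at 0.50 ± 0.19 (adjusted p = 0.054) there. Under GZ21T none of 9 was called, against 3.61% of all genes. There H2afx stood at -1.0 ± 0.34 (adjusted p = 0.062), H2afz at -0.85 ± 0.30 (adjusted p = 0.073) and H3f3b at -0.53 ± 0.19 (adjusted p = 0.083), per the authors' deposited table. Among 22 genes for histone chaperones and chromatin assembly 6 rose and 1 fell in lesions, with a median of 0.40. The H3 and H4 chaperone gene Asf1b rose to 1.82 ± 0.54 (adjusted p = 0.0091), the histone acetyltransferase gene Hat1 to 1.05 ± 0.38 (adjusted p = 0.034) and Set, a chaperone and phosphatase inhibitor, to 0.65 ± 0.20 (adjusted p = 0.012), while the chromatin remodeller Atrx fell to -0.97 ± 0.24 (adjusted p = 0.0015), per the authors' deposited table. Under GZ21T 2 of 21 were lower, against 2.29% of all genes. These were Rbbp4 at -0.52 ± 0.16 (adjusted p = 0.041) and Set at -0.65 ± 0.20 (adjusted p = 0.042), and Hat1 stood at -0.87 ± 0.37 (adjusted p = 0.14), per the authors' deposited table.

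Genes of DNA replication and S phase had 13 of 35 higher and none lower in lesions over non-UV skin (median 0.79), and genes of mitosis 15 of 20 higher and none lower (median 1.23). Among all genes 10.2% were higher and 8.17% lower. In the authors' deposited table the ribonucleotide reductase subunit Rrm2 rose to 2.16 ± 0.41 (adjusted p = 1.2e-05), the replication clamp Pcna to 0.79 ± 0.27 (adjusted p = 0.026) and the survivin gene Birc5 to 1.70 ± 0.38 (adjusted p = 0.00032). Top2a, a topoisomerase of dividing cells, rose to 1.01 ± 0.28 (adjusted p = 0.0039), and the proliferation marker Mki67 stood at 0.52 ± 0.29 (adjusted p = 0.19), per the authors' deposited table. Beside these, the histone genes had 79.4% called higher and a median of 1.35. Under GZ21T 1 of 29 replication genes and 4 of 20 mitosis genes were lower, against 2.29% of all genes, with medians of -0.78 and -1.09. The count for replication genes is near that share. Among the lower genes were Rrm1 at -0.90 ± 0.26 (adjusted p = 0.029) and Birc5 at -1.31 ± 0.38 (adjusted p = 0.03), while Pcna stood at -0.62 ± 0.27 (adjusted p = 0.15), Top2a at -0.82 ± 0.28 (adjusted p = 0.062) and Mki67 at -0.37 ± 0.29 (adjusted p = 0.44), per the authors' deposited table. In non-lesional over non-UV and perilesional over non-lesional skin the medians were 0.15 and 0.13 for replication genes and 0.49 and 0.24 for mitosis genes, with 0 called, beside 0.50 and 0.47 for the histone genes. Among all genes 1.66% and 0.112% were called there. In lesional over perilesional skin the medians were 0.51 for replication and 0.50 for mitosis genes, with 0 called, beside 0.45 for the histone genes and with 0.476% of all genes called. No difference between lists was tested.

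**Figure D4:**
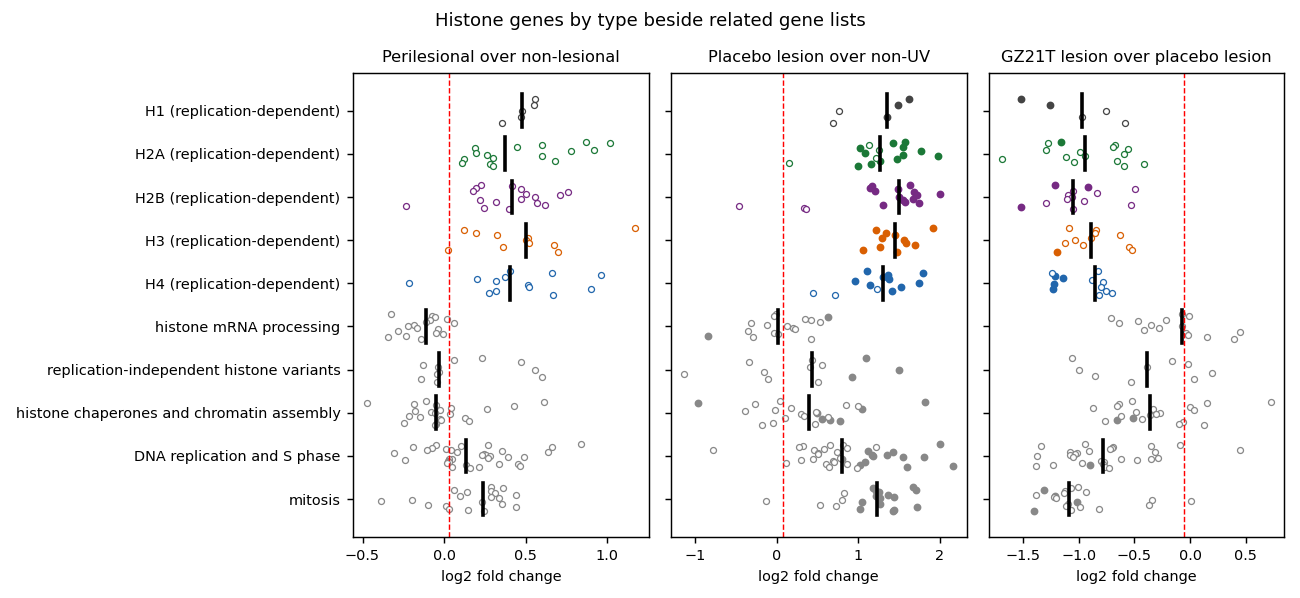
Log2 fold changes (x axis) of the histone genes by type and of 5 related gene lists (rows) in perilesional over non-lesional skin, placebo lesions over non-UV skin and GZ21T over placebo lesions; points are tested genes, filled where the adjusted p is under 0.05, black bars are medians and the dashed line is the median of all genes. The histone types have medians between 1.26 and 1.50 in lesions over non-UV skin and between -1.05 and -0.85 under GZ21T, and histone mRNA processing genes have medians of 0.02 and -0.07.

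Markers of the cells that skin can hold were counted in the same comparisons. Among all genes, 10.2% were called higher and 8.17% lower in lesions over non-UV skin, and 1.31% higher and 2.29% lower under GZ21T. The shares called were 0.112% in perilesional over non-lesional and 0.476% in lesional over perilesional skin. In lesions over non-UV skin the authors' deposited table has 7 of 7 stress keratinocyte markers higher (median 4.50) and 3 of 4 endothelial markers higher (median 3.38). Markers of the suprabasal, differentiated layer were lower for 3 of 7 (median -0.76), basal keratinocyte markers were higher for 1 and lower for 3 of 8 (median -0.15), and hair follicle markers were lower for 3 of 15 (median -2.30). T and NK cell markers were higher for 1 (Cd8a) and lower for 2 (Cd3e and Cd3g) of 6, red blood cell markers higher for 1 of 4 (Hba-a1) and adipocyte markers higher for 1 of 4 (Fabp4). Fibroblast, macrophage, melanocyte and skeletal muscle markers had 0 of 6, 0 of 6, 0 of 3 and 0 of 5 called, and no B cell marker was tested. Under GZ21T suprabasal markers were higher for 4 of 7 (median 1.27), led by Krt1 at 1.42 ± 0.38 (adjusted p = 0.019), and red blood cell markers were lower for 2 of 2 tested. Basal, stress, hair and endothelial markers had 0 of 8, 0 of 7, 0 of 10 and 0 of 3 called there, and none of the fibroblast, macrophage, T and NK cell, adipocyte and skeletal muscle markers tested was called. In perilesional over non-lesional skin 1 of 15 hair follicle markers was lower (median -4.17) and no other marker was called. Fibroblast markers had a median of 1.36 in that step. In lesional over perilesional skin no marker was called, with medians of 3.36 for hair follicle and 0.14 for fibroblast markers. All 8 basal keratinocyte markers, Krt5 and Krt14 among them, were tested, so transcripts of epidermis were present as the tissue label says, but the tables give no level per library for any marker. The part of these markers in the histone values was not tested.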

How the data were processed

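Per the submitters' processing notes, reads of the total RNA libraries were trimmed with Trim Galore and aligned to mouse GRCm38 (mm10), and DESeq2 was run. Not given in the sources used here are the aligner, the counter and its strand setting, the annotation, versions and the formula of the model. The authors deposited 4 tables, each for 1 comparison, with a log2 fold change, a Wald statistic (a score, the fold change over its SE), a p-value and an adjusted p-value, per the file headers. There are 0 unused columns of per-library values. Date-like symbols were removed, 25 to 27 rows a table. SE was computed as fold change over statistic.

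One table's name and header disagree. Its header, lesional over back skin, was used: 271 of the 1195 genes without reads in perilesional and non-lesional skin have a negative value there. Back was read as non-UV skin by elimination. The GZ21T table was turned in sign. Lesional over perilesional and GZ21T lesional over placebo non-lesional skin were derived from 3 tables each, with variances that are exact if 1 model held the group alone, normal p-values and Benjamini-Hochberg adjustment over 16791 and 16792 genes. This step was run on simulated data with independent groups under that same assumption. The run checks the computation and cannot check whether the assumption holds in these data.

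The histone genes and gene lists were chosen with earlier results of these data known. Named genes are those called, or the 12 smallest adjusted p-values a comparison, the extremes of each type, and fixed genes of the lists; the genes of the pairs, of the sharing bins and those described for their wide errors were named after their values were seen. Scripts used Python 3.11.15, numpy 2.4.6, pandas 2.3.3, scipy 1.17.1 and matplotlib 3.10.9.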

Additional observations from a re-analysis of the deposited data

How the results depend on the processing

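Every alternative kept the sign of each median: over every histone gene with a fold change, over those with an adjusted p in all tables, with each symbol counted, and centred on all genes, the median ranged from 1.27 to 1.39 in lesional over non-UV skin and from -0.96 to -0.90 under GZ21T. The count of 50 in lesional over non-UV skin lay between 48 and 52 under the other settings and was 0 with a null whose width was estimated from the genes. Under GZ21T the count of 11 became 5 with adjustment over every gene with a p-value, 6 centred on the median, 25 at an adjusted p under 0.1 and 0 with that wider null. In lesional over perilesional skin the count of 0 became 1 on genes with an adjusted p in all 4 tables and 1 at an adjusted p under 0.1. The counts of 0 elsewhere did not move, also with the largest of the 3 deposited SEs and, chosen after seeing the data, over genes with an adjusted p in the 3 tables used. The cause of these moves was not tested, and the share of all genes called under the alternative settings was not counted. No paired analysis was possible because the tables hold no values per library, and for the same reason leaving out each replicate was not run. Depth is unknown, and errors of 0.65 or more leave genes such as Hist1h2ao, Hist1h4m and Hist1h2ad without a call at values above 1 in lesions.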
